A study of Schizosaccharomyces pombe with 9 samples.

Results

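The heat shock factor gene hsf1+ and the genes of the main heat shock proteins and chaperones of fission yeast, *Schizosaccharomyces pombe*, were followed over 9 expression arrays of untreated cells. The genes considered were hsf1+, hsp9+, hsp16+, hsp78+, hsp90+, hsp104+, ssa1+, ssa2+, sks2+ and bip1+. A gene was included when a probe set of the array carried its symbol in the array annotation, which held for 8 of the 10, each with 1 probe set, among 2899 named *S. pombe* genes. The genes hsp78+ and hsp104+ had no probe set of that name and are not analysed here.

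Chaperones bind unfolded proteins and help them to fold, to stay soluble or to reach another compartment. In *S. pombe* they are made in growing cells, and a large part of them is made in greater amounts after heat. Heat shock factor, Hsf1, is the transcription factor that binds heat shock elements in front of chaperone genes. The cytosolic Hsp70 Ssa2 and its J-domain partner Mas5 are known to restrain Hsf1 in this yeast. Some heat shock genes also answer to many other stresses through the MAP kinase Sty1 and its transcription factor Atf1, hsp16+ and hsp9+ among them.

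There was 1 array for each of 8 gene deletions and 1 for wild type (WT). The deletions were of SPAC3F10.17, ash2+, SPAC27D7.08c, SPBC2A9.02, meu29+, sgf73+, pab1+ and sec65+, and came from a haploid deletion library, while the WT strain SP286 was labelled as a diploid and as h+ ade6-M210 ura4-D18 leu1-32. All cells were in exponential growth, at OD600 of 0.5 to 1.0, and none was treated with heat or a drug. Ash2 is a subunit of a histone H3 lysine methyltransferase complex, Sgf73 belongs to the deubiquitinating module of SAGA, Pab1 is a regulatory subunit of protein phosphatase PP2A, and Sec65 is a subunit of the signal recognition particle. From flow cytometry, the paper proposes diploidization in the deletions of meu29+, sgf73+, pab1+ and sec65+, more severe for pab1+ and sec65+. Ploidy may thus differ between the deletions too, and not only between them and WT. The effect of a deletion cannot be told apart from ploidy, from other differences between the strains or from the spread of single arrays, and no p-value can be given. These are bulk samples, so that fewer cells with a transcript and less transcript per cell cannot be told apart either.

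Values are the deposited log2 signals, and a ratio is the signal of a deletion array over that of the WT array. The arrays also carry probe sets for *S. cerevisiae*, and the signal that 95% of 2593 of these did not pass (36.2 to 40.2) was taken as the background of an array, and 2855 to 2872 of the 2899 genes lay above it. All 8 chaperone genes were above background on all 9 arrays. With no replicates, the pair of arrays most like each other, those labelled pab1Δ and sec65Δ, served as a measure of spread: 95% of genes differed between them by at most 0.267 on the log2 scale, although they are arrays of different genotypes. For every other pair this value was larger, from 0.508 for the label sec65Δ and WT to 1.18 for SPAC27D7.08cΔ and meu29Δ. The spread of 0.267 is thus the smallest one available. A difference beyond it can still be an ordinary one between 2 arrays. On its own array ash2+ was at background, at least 23.0-fold lower than in WT, and sgf73+ was 33.8-fold and meu29+ 12.6-fold lower, while pab1+ had a ratio of only 0.609 and sec65+ of 0.679. Those last arrays are therefore named by their label, and their results rest on that label alone. The other 3 deleted genes were not checked here.

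Among the 8 genes, hsp16+ and ssa1+ carried nearly all of the larger differences. At the 2-fold threshold, 9 of 64 ratios were lower than WT (14.1%), 6 of them of hsp16+ and 3 of ssa1+, and 0 were higher. Over all genes and deletions, 1.54% of 22971 ratios were at least 2-fold lower and 1.38% at least 2-fold higher. At 1.5-fold, 14 member ratios were lower (21.9%) against 4.55% of all, and 1 was higher (1.56%) against 4.95% of all. The median over the 8 genes stayed close to WT in each deletion, between -0.24 in meu29Δ and 0.024 in sgf73Δ on the log2 scale, where the medians of all genes were 0.064 and 0.058. The other 6 genes contributed no ratio past 2-fold. Only sks2+ and bip1+ stayed within 1.5-fold of WT in all 8 deletions, as 66.5% of genes did, and the other 6 of the 8 passed 1.5-fold in at least 1 deletion, as 33.5% of genes did.

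**Figure D1:**
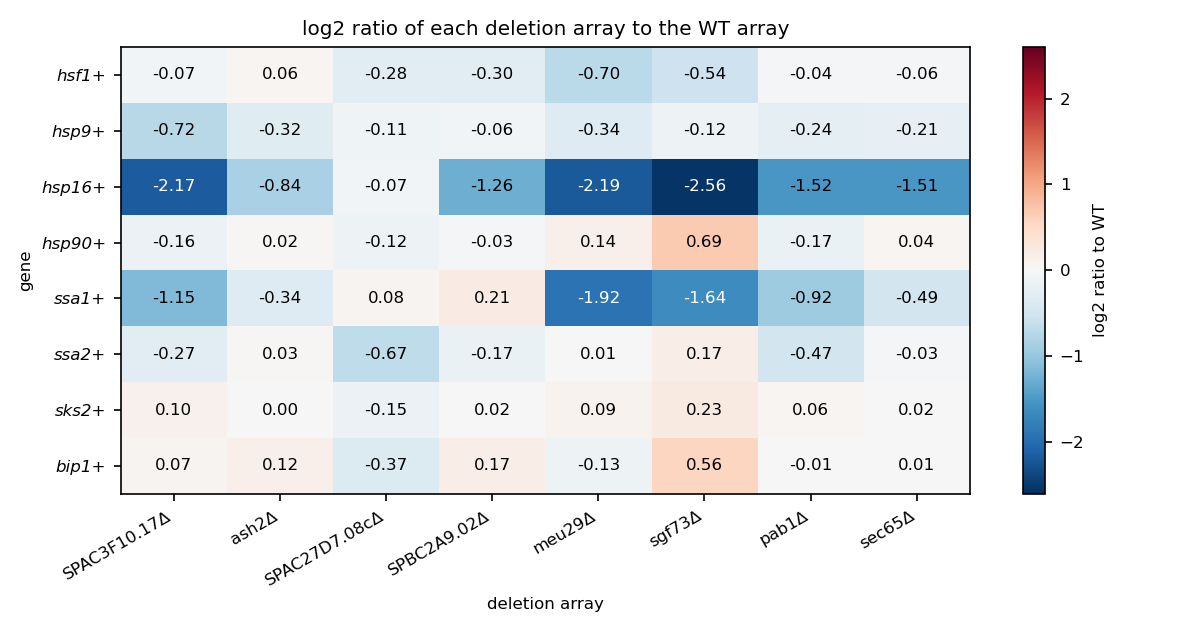
log2 ratio of each deletion array (columns) to the WT array for the 8 genes with a named probe set (rows), with the value printed in each field, blue for lower and red for higher than WT. The darkest fields lie in the hsp16+ and ssa1+ rows, with -2.56 for hsp16+ in sgf73Δ as the lowest value and 0.69 for hsp90+ in sgf73Δ as the highest.

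The heat shock factor gene itself passed 2-fold in no deletion, and its span of 0.76 was wider than that of 63.6% of genes. The hsf1+ (SPAC2E12.02) log2 signal was 11.48 in SPAC3F10.17Δ, 11.61 in ash2Δ, 11.27 in SPAC27D7.08cΔ, 11.25 in SPBC2A9.02Δ, 10.85 in meu29Δ, 11.01 in sgf73Δ, 11.51 with the label pab1Δ and 11.49 with the label sec65Δ, against 11.55 in WT. Only ash2Δ lay above WT. The lowest levels were those of meu29Δ and sgf73Δ, with log2 ratios of -0.70 and -0.54, and SPAC27D7.08cΔ and SPBC2A9.02Δ were at -0.28 and -0.30. These 4 deletions were farther from WT than the spread of 0.267, and the other 4 were not. Against WT itself, 95% of genes differed by at most 0.963 in meu29Δ, 1.09 in sgf73Δ, 0.670 in SPAC27D7.08cΔ and 0.635 in SPBC2A9.02Δ. The hsf1+ differences lay inside these bounds. From the lowest ratio, hsf1+ was at place 181 of 2872 genes in meu29Δ and 304 of 2878 in sgf73Δ. It was at place 321 of 2870 in SPAC27D7.08cΔ and 332 of 2866 in SPBC2A9.02Δ. No pair of neighbours in the order of the 9 levels differed by more than that spread, the widest gap being 0.24 between sgf73Δ and SPBC2A9.02Δ.

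The small heat shock protein gene hsp16+ (SPBC3E7.02C) showed the widest span of the 8, 2.56 on the log2 scale, which was wider than that of 97.8% of genes. Hsp16 keeps unfolded proteins from clumping and needs no ATP. Its log2 signal was 11.94 in SPAC3F10.17Δ, 13.27 in ash2Δ, 14.04 in SPAC27D7.08cΔ, 12.85 in SPBC2A9.02Δ, 11.92 in meu29Δ, 11.56 in sgf73Δ, 12.59 with the label pab1Δ and 12.60 with the label sec65Δ, against 14.11 in WT. WT was thus the highest of the 9, with SPAC27D7.08cΔ next to it, followed by ash2Δ. The 3 lowest arrays were sgf73Δ, meu29Δ and SPAC3F10.17Δ.

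As folds, hsp16+ was 5.88-fold lower in sgf73Δ, 4.56-fold in meu29Δ, 4.51-fold in SPAC3F10.17Δ and 2.40-fold in SPBC2A9.02Δ. On the arrays labelled pab1Δ and sec65Δ it was 2.87-fold and 2.85-fold lower. It was 1.79-fold lower in ash2Δ and 1.05-fold in SPAC27D7.08cΔ, and the last of these was inside the spread of 0.267. The share of all genes at least 2-fold lower was 3.27% in sgf73Δ, 2.89% in meu29Δ, 2.09% in SPAC3F10.17Δ, 0.768% in SPBC2A9.02Δ, 0.662% with the label pab1Δ and 0.696% with the label sec65Δ, and it was 1.5% in ash2Δ and 0.418% in SPAC27D7.08cΔ. In the 6 deletions past 2-fold, hsp16+ was among the 20 lowest ratios of about 2870 genes, at place 10 in sgf73Δ, 20 in meu29Δ, 11 in SPAC3F10.17Δ, 15 in SPBC2A9.02Δ, 13 with the label pab1Δ and 11 with the label sec65Δ. A ratio at most 0.5 in 6 or more of the 8 deletions was found for 8 of 2860 genes (0.28%). All these ratios share the single WT array.

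Against the median of the other 7 deletions in place of WT, the spread of hsp16+ among the deletions remained wide. SPAC27D7.08cΔ was then 1.45 higher and sgf73Δ 1.05 lower (log2 ratio -1.05), whereas ash2Δ, at 0.68, SPBC2A9.02Δ, at 0.25, and the array labelled sec65Δ, at 0.0098, lay above 0, as SPAC27D7.08cΔ did. Every hsp16+ ratio to WT was below 0 on the log2 scale, so that the sign differed between the references in these 4 deletions. In the order of the 9 levels, 4 of 8 neighbouring gaps were wider than 0.267, and the widest was 0.77 between ash2Δ and SPAC27D7.08cΔ. Levels of meu29Δ and SPAC3F10.17Δ did not differ beyond the spread, nor did those of the array labelled sec65Δ and SPBC2A9.02Δ, nor those of SPAC27D7.08cΔ and WT. The arrays labelled pab1Δ and sec65Δ were neighbours too, but the spread was taken from them.

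**Figure D2:**
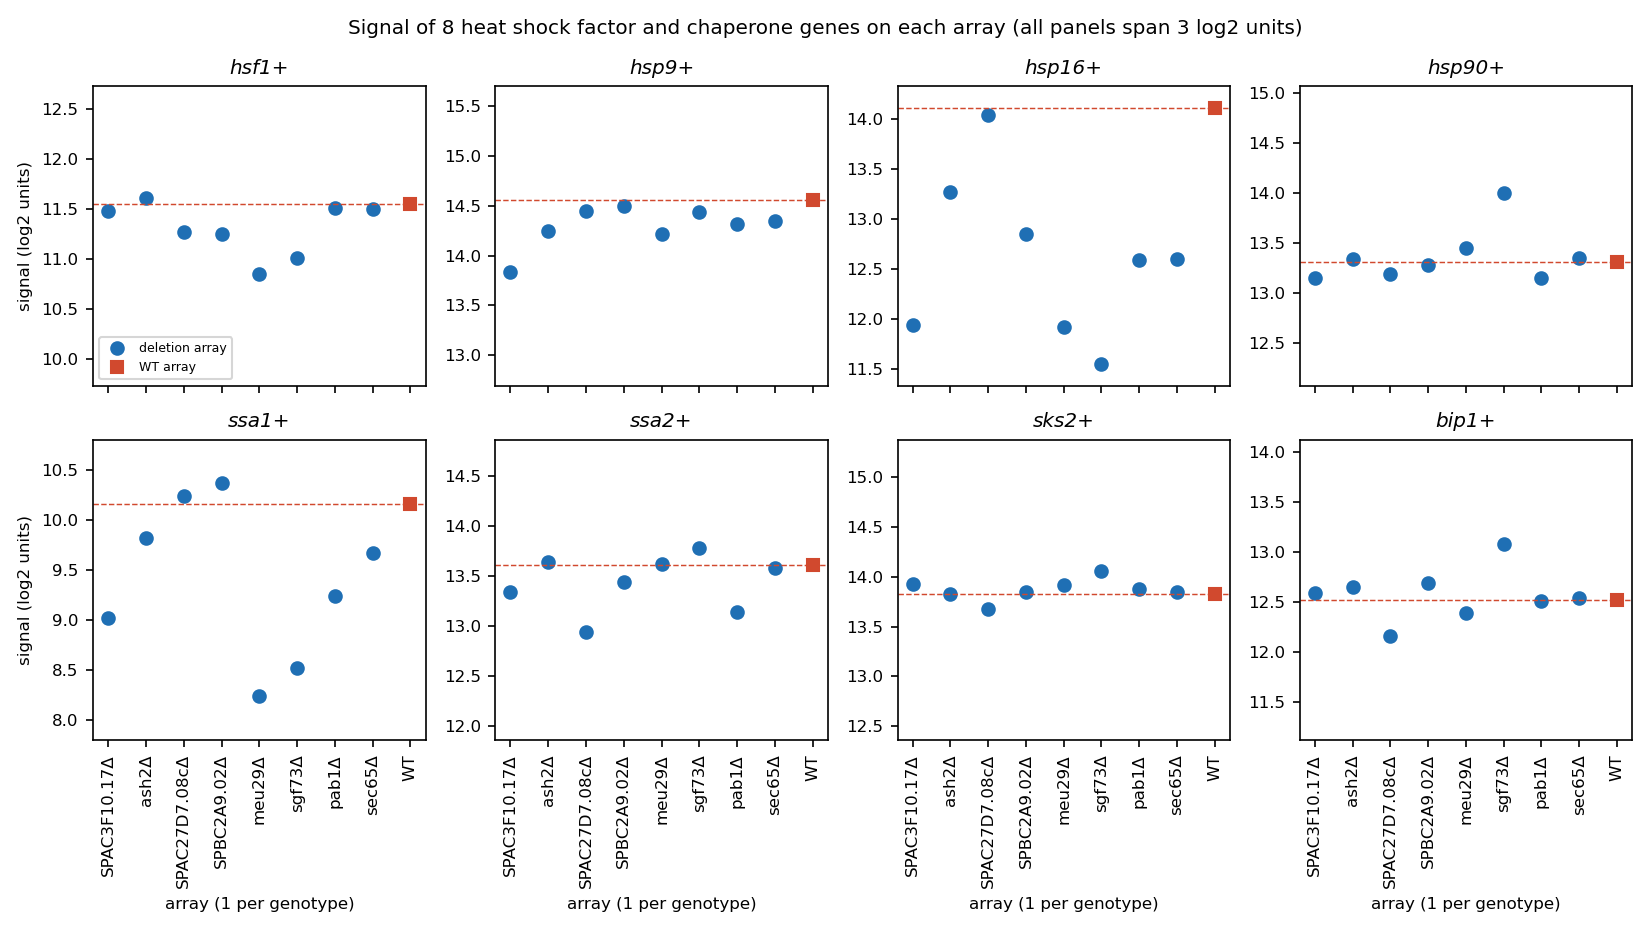
log2 signal of each of the 8 genes on the 9 arrays, 1 point per array, with the deletions to the left and WT at the right. The points of hsp16+ reach from 11.56 to 14.11 and those of ssa1+ from 8.24 to 10.37, while sks2+ stays between 13.68 and 14.06.

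The second small heat shock protein gene, hsp9+ (SPAP8A3.04C), is related to HSP12 of *S. cerevisiae*. Its log2 signal was 13.84 in SPAC3F10.17Δ, 14.24 in ash2Δ, 14.45 in SPAC27D7.08cΔ, 14.49 in SPBC2A9.02Δ, 14.21 in meu29Δ, 14.43 in sgf73Δ, 14.32 with the label pab1Δ and 14.35 with the label sec65Δ, against 14.56 in WT. WT was again the highest array, as it was for 162 of 2860 genes (5.66%). The log2 ratios ran from -0.72 in SPAC3F10.17Δ to -0.06 in SPBC2A9.02Δ, and in 3 deletions they passed the spread, SPAC3F10.17Δ, ash2Δ and meu29Δ. The order differed from that of hsp16+: sgf73Δ, lowest for hsp16+, lay at -0.12 for hsp9+. The signals came within 0.11 to 0.80 of the highest signal on their array, and whether the scale still separates levels so near its top was not tested. For hsp16+ the smallest such distance was 0.56.

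Of the Hsp70 genes, only ssa1+ (SPAC13G7.02C) passed the 2-fold threshold. Ssa1 and Ssa2 are the Hsp70 chaperones of the cytosol, which bind and release unfolded chains with the help of J-domain proteins. The ssa1+ log2 signal was 9.016 in SPAC3F10.17Δ, 9.82 in ash2Δ, 10.24 in SPAC27D7.08cΔ, 10.37 in SPBC2A9.02Δ, 8.24 in meu29Δ, 8.52 in sgf73Δ, 9.24 with the label pab1Δ and 9.67 with the label sec65Δ, against 10.16 in WT. The arrays of meu29Δ, sgf73Δ and SPAC3F10.17Δ were the 3 lowest, as for hsp16+, but here WT was the third highest, below SPBC2A9.02Δ and SPAC27D7.08cΔ.

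The ratio of ssa1+ to WT was 0.264 in meu29Δ, 0.320 in sgf73Δ and 0.452 in SPAC3F10.17Δ, and these were its 3 ratios past 2-fold. It was 0.528 with the label pab1Δ, 0.713 with the label sec65Δ and 0.789 in ash2Δ, which were beyond the spread as well. SPAC27D7.08cΔ (1.06) and SPBC2A9.02Δ (1.16) stayed within it. With that median of the other 7 as reference, ssa1+ had log2 ratios of -1.44 in meu29Δ and -1.16 in sgf73Δ, but of -0.66 in SPAC3F10.17Δ, no longer past 2-fold, and 1.13 in SPBC2A9.02Δ. By that reference ash2Δ, at 0.58, and the array labelled sec65Δ, at 0.43, lay above 0, whereas their ratios to WT lay below. Of all genes, 1.47% were at least 2-fold lower in 3 or more deletions. The span of 2.13 was wider than that of 96.8% of genes, and 4 of the 8 gaps between neighbouring levels passed 0.267, the widest being 0.50 between sgf73Δ and SPAC3F10.17Δ.

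The other cytosolic Hsp70 gene, ssa2+ (SPCC1739.13), did not follow ssa1+. Its log2 signal was 13.34 in SPAC3F10.17Δ, 13.64 in ash2Δ, 12.94 in SPAC27D7.08cΔ, 13.43 in SPBC2A9.02Δ, 13.62 in meu29Δ, 13.78 in sgf73Δ, 13.14 with the label pab1Δ and 13.58 with the label sec65Δ, against 13.61 in WT. It was lowest in SPAC27D7.08cΔ, where ssa1+ was at its WT level, and highest in sgf73Δ, where ssa1+ was 1.64 lower (log2 ratio -1.64). Its ratio of 0.629 in SPAC27D7.08cΔ was at place 36 from the lowest of 2870 genes, in a deletion in which 1.71% of genes were at least 1.5-fold lower. The log2 ratio with the label pab1Δ was -0.47, and none of the gaps between neighbouring levels passed 0.267. The probe sets of ssa1+ and ssa2+ are separate, and whether either also picks up transcripts of the other was not tested.

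Sks2 is the Hsp70 that sits at the ribosome and receives chains as they are made. The sks2+ (SPBC1709.05) log2 signal was the steadiest of the 8, from 13.68 in SPAC27D7.08cΔ to 14.06 in sgf73Δ, with a median of 13.86 over the deletions, against 13.82 in WT. No deletion differed from WT by more than 0.267, and its span of 0.38 was narrower than that of most genes (percentile 18.8).

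BiP, the Hsp70 of the endoplasmic reticulum, is encoded by bip1+ (SPAC22A12.15C). Its log2 signal was 12.59 in SPAC3F10.17Δ, 12.65 in ash2Δ, 12.16 in SPAC27D7.08cΔ, 12.69 in SPBC2A9.02Δ, 12.39 in meu29Δ, 13.08 in sgf73Δ, 12.51 with the label pab1Δ and 12.53 with the label sec65Δ, against 12.52 in WT. Only sgf73Δ, 0.56 higher (a ratio of 1.48), and SPAC27D7.08cΔ, at a log2 ratio of -0.37, were beyond the spread. The gap between sgf73Δ and the next array was 0.39.

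The Hsp90 gene hsp90+ (SPAC926.04C) differed from WT by more than 0.267 in a single deletion. Hsp90 takes over clients such as kinases from Hsp70 and brings them to their active form. Its log2 signal was 13.15 in SPAC3F10.17Δ, 13.34 in ash2Δ, 13.19 in SPAC27D7.08cΔ, 13.28 in SPBC2A9.02Δ, 13.46 in meu29Δ, 14.00 in sgf73Δ, 13.15 with the label pab1Δ and 13.36 with the label sec65Δ, against 13.31 in WT. All arrays but sgf73Δ lay within 0.267 of WT. In sgf73Δ the ratio was 1.61, the only member ratio at least 1.5-fold higher, at place 184 from the highest of 2878 genes, and 8.96% of genes were at least 1.5-fold higher there. Between sgf73Δ and WT, 95% of genes differed by at most 1.09 on the log2 scale, and the hsp90+ difference of 0.69 lay inside that.

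In sgf73Δ several partners of Hsp90 were also above WT. Of the 11 measured genes of Hsp90 and its co-chaperones, 10 were above WT (against 56.8% of all genes), with a median of 0.27 on the log2 scale. At least 1.5-fold higher were 4 of them, against 8.96% of all genes, and 1 was below WT, at -0.44. These 4 were hsp90+, sti1+ at 0.85, wos2+ at 0.62 and wis2+ at 1.17. Sti1 links Hsp70 to Hsp90, Wos2 is the p23 co-chaperone, and Wis2 is a cyclophilin co-chaperone. With the label sec65Δ, 11 of 12 measured genes of the Hsp90 list were also above WT (median 0.065), against 55.6% of all genes. Above WT were also 9 of 12 in ash2Δ, 8 of 11 in meu29Δ and 7 of 12 in SPAC3F10.17Δ, against 48.1%, 59.8% and 60.4%. Below WT were 10 of 12 in SPAC27D7.08cΔ and 9 of 11 in SPBC2A9.02Δ and with the label pab1Δ, against 50.1%, 56.2% and 44.4%. Of the 9 J-domain genes 6 were above WT in sgf73Δ, where 56.8% of all genes were, and 3 below, from mas5+, encoding the partner of Ssa2, at 0.88 to psi1+ at -0.68. The genes sti1+, wos2+ and mas5+ are named after their values were seen.

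The level of wis2+ was 11.77 in SPAC3F10.17Δ, 12.05 in ash2Δ, 11.58 in SPAC27D7.08cΔ, 11.63 in SPBC2A9.02Δ, 12.56 in meu29Δ, 13.35 in sgf73Δ, 11.86 with the label pab1Δ and 12.01 with the label sec65Δ, against 12.19 in WT. The sgf73Δ array stood above all others, and its ratio of 2.24 was the only one of any gene on the lists at least 2-fold higher, in a deletion where 2.71% of all genes were.

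**Figure D3:**
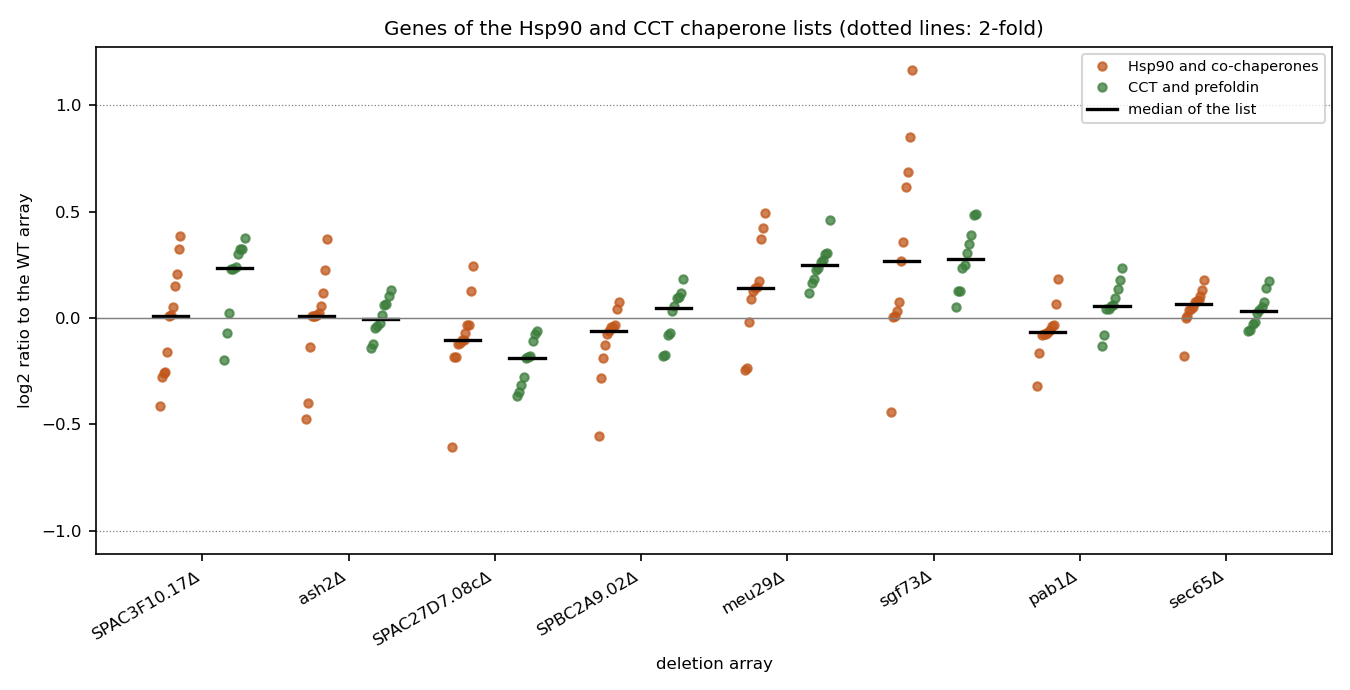
log2 ratio to the WT array, in each deletion, of the genes of Hsp90 and its co-chaperones and of the chaperonin CCT and prefoldin, 1 point per gene, with lines at the median. In sgf73Δ 10 of 11 Hsp90 genes and 10 of 10 CCT and prefoldin genes lie above 0, and in SPAC27D7.08cΔ 0 of 10 CCT and prefoldin genes do.

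The sgf73Δ array also differed in the GPD3 control used as a measure of RNA integrity, but not in the act1 or TFIID control. The 3′ probe set of the *S. pombe* GPD3 control exceeded its 5′ probe set by 1.70 on the log2 scale in sgf73Δ, against 0.143 to 0.616 on the other 8 arrays, whereas for act1 the difference was between -0.075 and 0.052 on all 9. The lowest GPD3 value, 0.143, was that of WT, and every deletion had 0.369 or more. For the TFIID control the difference was 0.61 in sgf73Δ, within a range from 0.55 in SPAC27D7.08cΔ to 0.84 in SPAC3F10.17Δ. The part of these differences in the sgf73Δ values of hsp16+, ssa1+, hsp90+ and their partners, or in other ratios to WT, was not tested. The GPD3 3′ probe set, unlike the 5′ one, is of a type that can match several transcripts. Whether it read other transcripts was not tested either.

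The chaperonin CCT folds actin and tubulin, and prefoldin hands chains to it. The 10 measured CCT and prefoldin genes differed little in size but lay on 1 side of WT in 3 deletions. All 10 were above WT in meu29Δ (median 0.25) and in sgf73Δ (median 0.28), where 59.8% and 56.8% of all genes were. In SPAC27D7.08cΔ all 10 were below WT (median -0.19), against 50.1% of all genes. Above WT were also 8 of 10 in SPAC3F10.17Δ (median 0.24) and with the label pab1Δ (median 0.059), against 60.4% and 55.6% of all genes. With the label sec65Δ and in SPBC2A9.02Δ 6 of 10 were above WT, and in ash2Δ 5 of 10, against 55.6%, 43.8% and 48.1%. None reached 1.5-fold in any deletion.

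Over all the chaperone lists without the 8 genes, 46 of 62 genes had a probe set. The lists also hold co-chaperones, folding enzymes and some genes of related roles, so the shares are not of chaperones alone. In SPAC27D7.08cΔ 40 of the 46 were below WT (median -0.16), against 50.1% of all genes. In sgf73Δ 35 of 45 measured genes were above WT (median 0.18), against 56.8% of all genes, and in meu29Δ 32 of 45 were (median 0.16), against 59.8%. At the 2-fold threshold 1 of 364 ratios was higher (0.275%), that of wis2+, and 1 was lower (0.275%), that of psi1+ in meu29Δ, where over all genes 1.38% of ratios were higher and 1.54% lower. Psi1 is a J-domain partner of Hsp70. Its log2 signal was 11.46 in SPAC3F10.17Δ, 12.04 in ash2Δ, 11.44 in SPAC27D7.08cΔ, 11.11 in SPBC2A9.02Δ, 10.12 in meu29Δ, 11.05 in sgf73Δ, 11.49 with the label pab1Δ and 11.45 with the label sec65Δ, against 11.73 in WT. Only meu29Δ, with a ratio of 0.327, was 2-fold lower. In the endoplasmic reticulum and the mitochondria, 0 ratios of the 7 and 8 listed genes passed 2-fold.

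The genes of the general stress response gave larger differences than the chaperone lists. Both kinds of list were chosen with earlier results of these data known, so that the shares are descriptions only. Of 104 ratios of 13 stress genes, most of them known as targets of Atf1, 23 were at least 2-fold lower (22.1%) and 0 higher, against 1.54% and 1.38% of the ratios of all genes. Their median log2 ratio was -1.03 in meu29Δ, -0.77 in sgf73Δ and -0.48 in SPAC3F10.17Δ, the 3 deletions with the lowest hsp16+ and ssa1+. It was -0.29 with the label pab1Δ, -0.24 with the label sec65Δ, -0.18 in SPBC2A9.02Δ, -0.06 in ash2Δ and -0.04 in SPAC27D7.08cΔ. The number at least 2-fold lower was 8 in meu29Δ, 5 in sgf73Δ, 3 in SPBC2A9.02Δ and 1 or 2 in the others, where 2.89%, 3.27% and 0.768% of all genes were in the first 3 of these and 0.418% to 2.09% in the others.

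Within this list, pyp2+, encoding a phosphatase of Sty1, had ratios of 0.0983 to 0.624 and was 2-fold lower in 7 of 8 deletions. The nuclear envelope stress gene ish1+ ranged from 0.140 to 1.02, and the catalase gene ctt1+ from 0.217 to 0.928, each 2-fold lower in 3 deletions. The trehalose genes tps1+ (synthesis) and ntp1+ (breakdown) were 2-fold lower only in meu29Δ, with ratios of 0.311 and 0.305. In meu29Δ, rds1+ had a ratio of 0.203 and gpd1+, for glycerol synthesis, of 0.490. The metallothionein gene zym1+ was at 0.499 in meu29Δ and 0.486 with the label sec65Δ, the sulfiredoxin gene srx1+ at 0.428 in sgf73Δ, and obr1+ was 2-fold lower in 3 deletions, with 0.268 in SPBC2A9.02Δ as its lowest ratio.

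Of 8 stress regulators, hsf1+ included, all 8 were below WT in meu29Δ (median -0.53) and in sgf73Δ (median -0.47), against 40.2% and 43.2% of all genes. In meu29Δ atf1+ had a ratio of 0.307 and rsv2+ of 0.267, and in sgf73Δ rsv2+ was at 0.195 and pap1+ at 0.499. Atf1, Rsv2 and Pap1 are stress transcription factors, the last of them for oxidative stress. In SPAC3F10.17Δ, rsv2+ was at 0.464. In SPAC27D7.08cΔ, where hsp16+ stayed at its WT level, atf1+ was higher at a ratio of 1.69. The atf1+ ratio was 1.18 in SPBC2A9.02Δ, 0.954 with the label pab1Δ, 0.844 with the label sec65Δ, 0.659 in SPAC3F10.17Δ and 0.643 in sgf73Δ. In all of these hsp16+ was more than 2-fold lower than in WT. In ash2Δ the atf1+ ratio was 0.960. Whether hsp16+ follows atf1+ was not tested.

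**Figure D4:**
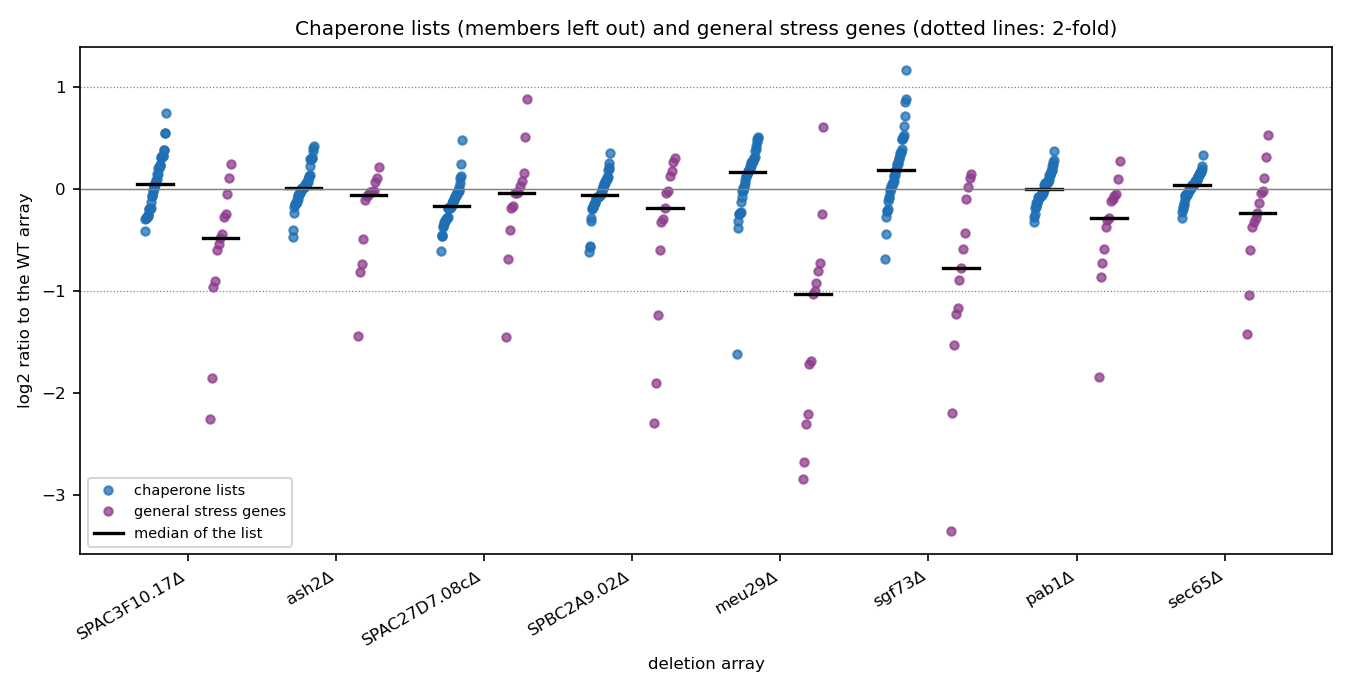
log2 ratio to the WT array, in each deletion, of the chaperone-list genes without the 8 members and of the stress genes, 1 point per gene, with lines at the median. The stress genes spread downwards in meu29Δ, sgf73Δ and SPAC3F10.17Δ, with medians of -1.03, -0.77 and -0.48, while the median of the chaperone genes stays between -0.16 and 0.18 in all 8.

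Over the 9 arrays, hsp16+ and ssa1+ were the most alike of the 28 pairs among the 8 genes, with r = 0.85 (Spearman 0.87). Without the 2 arrays farthest from the hsp16+ median r was 0.84, and over the 8 deletions alone it was 0.84 too. The pair least alike was hsp16+ and sks2+, with r = -0.86, although sks2+ varied little. These values are descriptions of 9 arrays of different genotypes, which share their processing.

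Among 568 genes above background on all arrays and with a span over 1, the patterns most like hsp16+ were those of mug108+ (r = 0.97, Spearman 0.95) and cmk1+ (r = 0.94, Spearman 0.95). Without WT and SPAC27D7.08cΔ, the arrays farthest out, r was 0.93 and 0.83. Mug108 is named for its rise in meiosis, and Cmk1 is a calmodulin-dependent kinase. The mug108+ log2 signal was 7.13 in meu29Δ and 12.64 in SPAC27D7.08cΔ, against 12.24 in WT, and its ratios to WT ran from 0.0290 to 1.32. Those of cmk1+ ran from 0.412 to 1.04.

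Most like ssa1+ were mdm34+ (r = 0.95, Spearman 0.97) and cgs1+ (r = 0.94, Spearman 0.98). Without meu29Δ and sgf73Δ, r was 0.85 and 0.89. Mdm34 belongs to the complex that ties mitochondria to the endoplasmic reticulum, and Cgs1 is the regulatory subunit of protein kinase A. The ratios to WT ran from 0.498 to 1.12 for mdm34+ and from 0.492 to 1.42 for cgs1+.

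**Figure D5:**
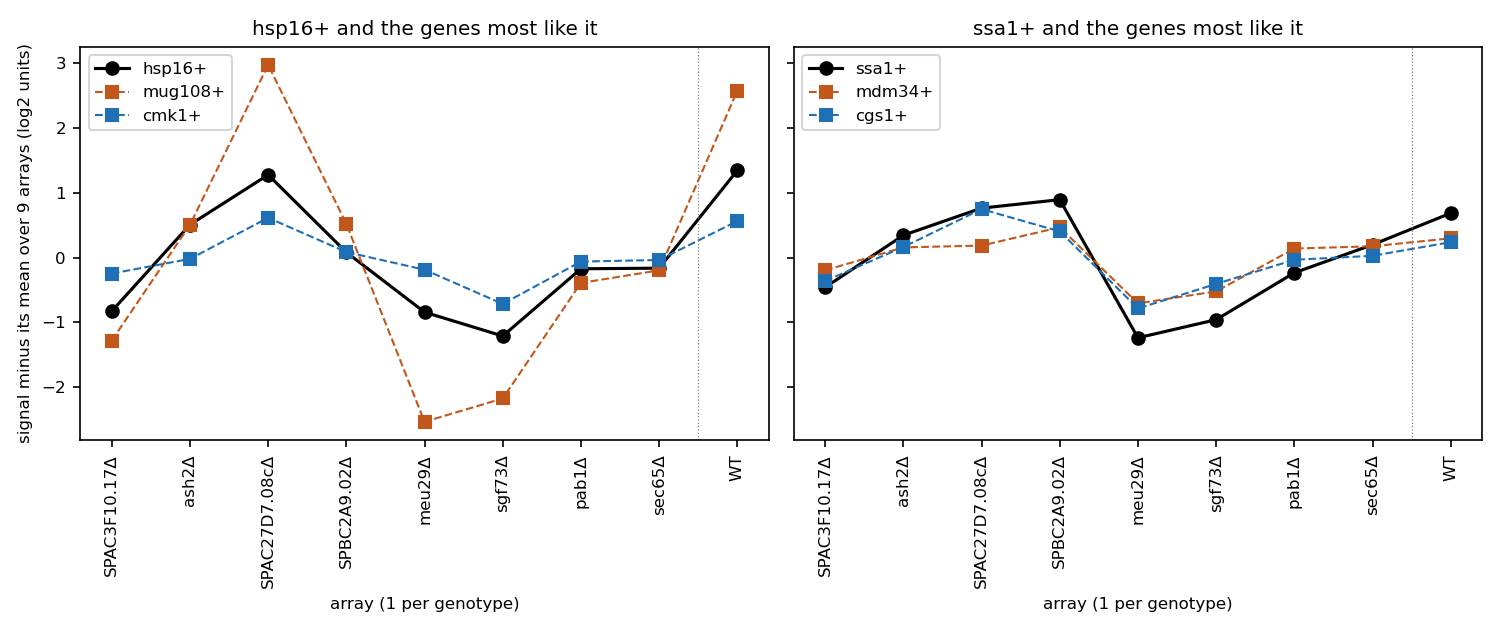
log2 signal minus its mean over the 9 arrays (vertical axis) on each array (horizontal axis), for hsp16+ with mug108+ and cmk1+ on the left and for ssa1+ with mdm34+ and cgs1+ on the right. The black line of hsp16+ is lowest in sgf73Δ and that of ssa1+ in meu29Δ, and the coloured lines of the genes most like them follow with wider or narrower swings.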

How the data were processed

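Total RNA of 9 cultures, 1 per genotype, was hybridised to Affymetrix Yeast Genome 2.0 arrays. The authors deposited 1 value per probe set and array, read here as a log2 signal from its range, 3.05 to 14.7, and had the data analysed by a company. MAS5 appears in the labels with no role, and how signals were scaled was not given in the sources used here. Since the medians of the arrays differed by at most 0.09, values were taken as already scaled and were used as deposited. The number of arrays limits the precision.

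Of 10928 probe sets, 5518 had 1 gene symbol, 20 had several and 5390, of which 213 were controls, had none. Matching to current gene names gave 2917 probe sets of 2899 *S. pombe* genes, with 1 probe set per gene chosen by type and then by highest mean. Background replaced any lower signal, and a ratio was formed where at least 1 of its 2 arrays exceeded background. A ratio of 2 was the threshold, with no test. Genes named were the members, listed genes past 2-fold in a deletion, the deleted genes, and the 2 genes most like each member with a span over 1; sti1+, wos2+ and mas5+ were added after their values were seen. The members and lists were chosen with earlier results of these data known. From the lists, sgt1, ssp1 and phb1 were dropped, since in *S. pombe* these names belong to other genes. A search for heat shock elements in promoters was not run, since no promoter sequence was used here. Python 3.11.15 with numpy 2.4.6, pandas 2.3.3 and scipy 1.17.1 was used.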

Additional observations from a re-analysis of the deposited data

How the results depend on the processing

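No paired analysis was possible because each genotype had 1 array and the groups share fewer than 2 replicate numbers. Median scaling, quantile normalization and a pseudocount of 50 signal units kept all 9 member ratios past 2-fold. No member log2 ratio moved by more than 0.159, and the greatest shift was that of ssa1+ in meu29Δ, to -1.76 with the pseudocount. No floor, background taken at percentile 99 and the mean of all probe sets left the member ratios as they were. These settings could not change them, since each member had 1 probe set and lay above background on all arrays. The counts over the members and the lists also stayed within 1.5 times without the arrays labelled pab1Δ and sec65Δ.

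Both the reference and the fold threshold moved the counts. Against the median of the other 7 deletions, member ratios at least 2-fold lower numbered 3 and higher 2, listed ratios 17 lower and 5 higher, where WT as reference gave 9 and 0 for members and 38 and 1 for listed genes. By the same reference the median of the members was 0.16 in ash2Δ and -0.056 with the label pab1Δ, and hsp16+ had the opposite sign in ash2Δ (0.68), SPAC27D7.08cΔ (1.45), SPBC2A9.02Δ (0.25) and with the label sec65Δ (0.0098), and ssa1+ in ash2Δ (0.58) and with the label sec65Δ (0.43). At 1.5-fold there were 14 member ratios lower and 1 higher, and 68 listed ratios lower and 10 higher. At 3-fold there were 5 member ratios lower, and 22 listed ratios lower and 0 higher. The shares over all genes at 3-fold, and against the median of the other 7 deletions, were not computed. Whether those counts differ from the shares of all genes is thus not known. The signals of hsp9+ and the WT signal of hsp16+ lay near the top of the scale, whose effect on their ratios was not tested, and all ratios of a gene share the single WT array.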
